A study of Mus musculus with 15 samples.

Results

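Transcripts of 10 genes were followed: the 2 quinone reductase genes of the mouse, Nqo1 and Nqo2, and 8 antioxidant genes linked to the transcription factor NRF2, namely Nfe2l2, Keap1, Hmox1, Gclc, Gclm, Txnrd1, Srxn1 and Slc7a11. They are 10 of the 43432 genes in the deposited table, and 9 of them had enough reads to be tested, among 16736 tested genes in all. Nqo2 was picked because it was higher after joint agonists than after vehicle in these same libraries, and the other 9 were listed beside it to see whether it moved alone. No test is therefore given for Nqo2 in comparisons that hold the joint treatment or the vehicle, and its values there are a description.

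RNA was sequenced from 266-6 cells, a mouse pancreatic acinar tumour line, that had spent 24 h in stripped medium before 24 h of ligand. The 15 libraries form 5 groups of 3: 9-cis retinoic acid, which binds both retinoic acid receptors (RAR) and retinoid X receptors (RXR); AM580, which activates RARα selectively; CD3254, which activates RXR; both AM580 and CD3254, called the joint treatment below; and the vehicle DMSO. The labels name no genetic difference between the groups and no ligand concentration, and do not say whether replicates were separate cultures, so p-values measure only the spread between these libraries, which may be technical. A line in culture stands for acinar cells only in part: of 13 acinar markers, Ctrb1 (3841 to 7201 CPM, read counts scaled to a common library total), Cela1 and Cpa1 were abundant, while Cpb1, Pnlip and Amy2a5 had a median of at most 0.350 CPM.

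NQO1 and NQO2 are flavoproteins that reduce quinones by 2 electrons, which avoids semiquinone radicals. NQO1 takes its electrons from NADH or NADPH, while NQO2 prefers dihydronicotinamide riboside, which few cells make in quantity. NRF2, the product of Nfe2l2, is held low by KEAP1, a ubiquitin ligase adaptor that senses electrophiles, and when freed it binds antioxidant response elements near genes for glutathione synthesis, thioredoxin reduction and heme breakdown. Retinoid receptors bind DNA as RXR heterodimers on repeats of a 6-base sequence, AGGTCA. In human cells, RARα bound to retinoic acid has been described as a restraint on NRF2.

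The libraries did not group by treatment, which touches every value below. The first principal component of log2 CPM, computed without the 10 genes and the listed pathway genes, held 47.8% of the variance. It set apart 5 libraries, 1 of each treatment: replicate 1 of 9-cis retinoic acid, of AM580, of CD3254 and of DMSO, and replicate 2 of the joint treatment. These are called the 5-library set and the others the 10-library set. A list of 17 hypoxia-induced genes summed to 10455 to 15471 CPM in the 5-library set and to 1567 to 2378 CPM in the 10-library set. Cd68 and 4 other immune markers summed to 9.79 to 24.1 CPM in the 5-library set and 4.58 to 8.42 CPM in the 10-library set, with Ptprc, Adgre1 and Cd3e among the markers at or near 0. The acinar markers summed to 5953 to 10292 and 7113 to 10624 CPM in the 2 sets. Gene reads numbered 28501170 to 46801058, apart from replicate 3 of 9-cis retinoic acid with 14600962, where 63.0% of reads had no gene. Each comparison was made in an edgeR quasi-likelihood fit with treatment as the only factor, and also in a fit with the library set as a term. P-values were adjusted over all 16736 genes (FDR) and called under 0.05. Where these Results give a fitted change from 1 fit and name none, it comes from the fit with the term. Because these counts also defined the sets, no p-value between the sets is given.

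A known retinoid target was higher with the ligands. Cyp26b1, whose enzyme degrades retinoic acid, averaged 71.8 ± 48.3 CPM after the joint treatment and 0.307 ± 0.315 CPM after DMSO (SD, n = 3 each), with an edgeR FDR of 0.0240 without the set term and 9.7e-08 with it. With the term it was also called higher than in DMSO after 9-cis retinoic acid, AM580 and CD3254. With the term, Dhrs3, for a retinaldehyde reductase, was called higher than in DMSO after the joint treatment, 9-cis retinoic acid and AM580 (log2 changes 3.14, 2.79 and 2.49), and Rarb, for RARβ, after the joint treatment and 9-cis retinoic acid (3.21 and 3.07).

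Of the quinone reductase pair, these cells held transcripts of Nqo2 and almost none of Nqo1. Nqo2 (ENSMUSG00000046949) lies on the plus strand of chromosome 13, from 33964687 to 33988443, and Nqo1 (ENSMUSG00000003849) on the minus strand of chromosome 8, from 107388225 to 107403206, in GENCODE M21 on GRCm38. Nqo1 had 38 reads over all 15 libraries (exact Poisson 95% interval 26.9 to 52.2, counting error only), against 19691 reads for Nqo2. Per library, Nqo1 had 5, 2 and 1 reads after 9-cis retinoic acid, 2, 7 and 4 after AM580, 1, 3 and 4 after CD3254, 1, 0 and 1 after the joint treatment, and 0, 1 and 6 after DMSO. Its highest level was 0.154 CPM, no treatment stood apart, and it failed the filter on low counts, so any difference between treatments was not detectable at this depth. In the 2 libraries with 0 reads, 3 reads would be 0.107 CPM (joint treatment, replicate 2) and 0.0760 CPM (DMSO, replicate 1). Per kilobase of exon, the mean level of Nqo2 was 204 times that of Nqo1.

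The 300 bases around the annotated starts of the pair (250 before and 50 after, from RefSeq on GRCm38.p6) are shown because the genes share an enzyme activity but not a level here. Capitals mark every AGGTCA on either strand. The Nqo2 window is chr13:33964409-33964708 on the plus strand and holds AGGTCA at -78 and at +5 from the start. The Nqo1 window is chr8:107403156-107403455 on the minus strand and holds none.
Nqo2: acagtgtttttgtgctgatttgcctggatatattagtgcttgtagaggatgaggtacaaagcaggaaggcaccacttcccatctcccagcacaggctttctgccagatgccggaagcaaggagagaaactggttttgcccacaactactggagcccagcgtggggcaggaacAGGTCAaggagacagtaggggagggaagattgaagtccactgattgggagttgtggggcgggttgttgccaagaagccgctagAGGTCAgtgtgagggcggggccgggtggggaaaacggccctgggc
Nqo1: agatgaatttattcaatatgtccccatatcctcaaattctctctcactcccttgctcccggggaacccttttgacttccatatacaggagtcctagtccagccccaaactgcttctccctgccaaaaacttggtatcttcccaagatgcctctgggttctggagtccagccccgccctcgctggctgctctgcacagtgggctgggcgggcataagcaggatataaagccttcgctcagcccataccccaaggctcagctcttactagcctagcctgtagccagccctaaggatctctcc
AGGTCA stood in 16.3% of the 32851 promoter windows of the table, and at least 2 copies in 1.81%. Pairs of the motif in the same direction with gaps of 1, 2 or 5 bases (GGTCANNGGTCA, GGTCANNNGGTCA and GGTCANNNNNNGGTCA, both strands) stood in 0.222%, 0.0670% and 0.1005% of windows and in none of the 11 windows held for 8 of the 10 genes (Hmox1 and Gclc had none). A second annotated start of Nqo2 had no AGGTCA. Only these exact letters were searched, so repeats with other bases in the motif would not be found.

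Nqo2 was highest after the joint treatment. It stood at 54.8, 36.1 and 51.3 CPM there (replicates 1 to 3), at 25.2, 47.0 and 38.1 CPM after 9-cis retinoic acid, at 21.5, 41.4 and 44.8 CPM after AM580, at 21.2, 34.3 and 33.0 CPM after CD3254, and at 15.8, 26.6 and 27.4 CPM after DMSO. All 3 joint libraries lay above all 3 DMSO libraries, as for 2.39% of all tested genes, and Nqo2 was picked from this contrast. Each of the other 3 treatments overlapped DMSO. In every treatment the lowest value was that of the library in the 5-library set. The group means were 47.4 ± 9.94, 36.8 ± 11.0, 35.9 ± 12.6, 29.5 ± 7.23 and 23.3 ± 6.48 CPM in that order (SD, n = 3 each). Each mean differed from the next in that order by less than the larger SD of the pair, and the libraries of the groups at either end, joint treatment and DMSO, did not overlap. In bulk RNA, fewer cells that hold a transcript and less of it per cell cannot be told apart.

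**Figure D1:**
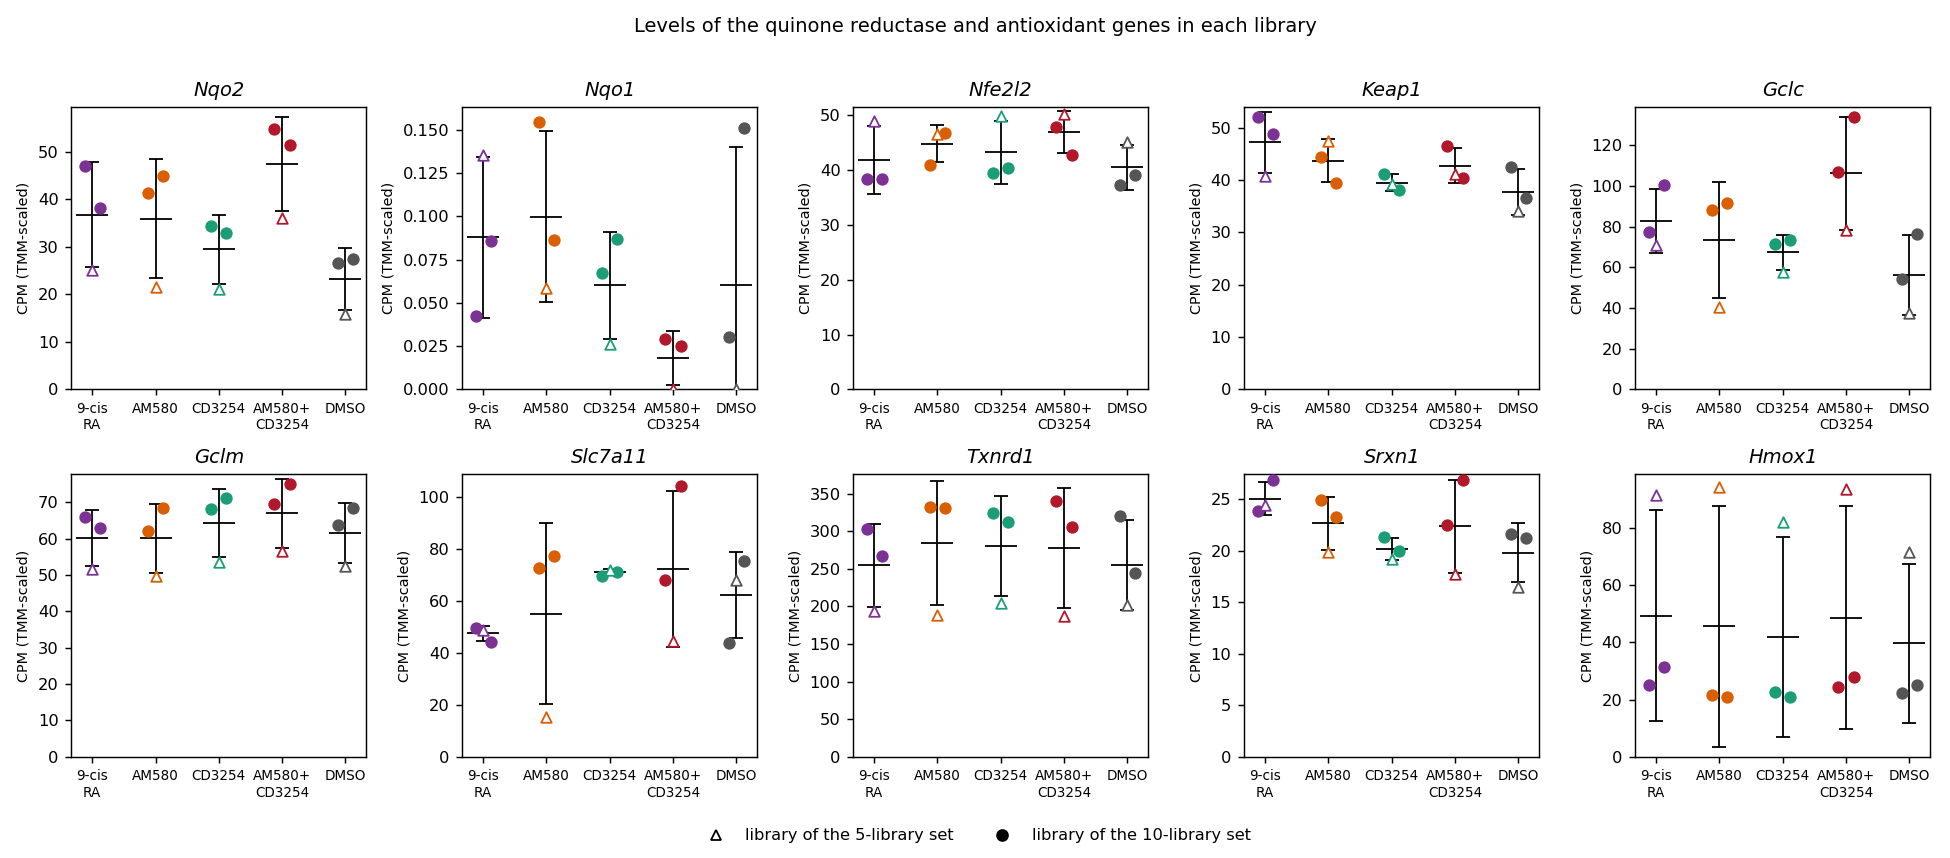
Level of each of the 10 genes in every library, in CPM on linear axes that start at 0. Triangles are the 5-library set, circles the 10-library set, and bars the mean ± SD of 3 libraries. Nqo2 spans 15.8 to 54.8 CPM and Nqo1 does not exceed 0.154 CPM, and the triangles of Hmox1 lie between 71.6 and 94.3 CPM above all its circles.

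Nqo2 was higher after each ligand than after DMSO within either library set. With the set term, the log2 change from DMSO was 1.05 ± 0.13 for the joint treatment, 0.66 ± 0.13 for 9-cis retinoic acid, 0.60 ± 0.13 for AM580 and 0.35 ± 0.13 for CD3254 (fitted value ± SE, untested). Without the term the same 4 values were 1.03 ± 0.33, 0.66 ± 0.33, 0.63 ± 0.33 and 0.34 ± 0.33. Without the term, single libraries moved the smaller values: CD3254 ran from 0.11 without DMSO replicate 1 to 0.52 without CD3254 replicate 1, AM580 from 0.40 without DMSO replicate 1 to 0.89 without AM580 replicate 1, and 9-cis retinoic acid from 0.43 without its replicate 2 to 0.87 without its replicate 1. Between the joint library and the DMSO library of the 5-library set the difference of log2 CPM was 1.19, and between the means of the 10-library set it was 0.97. The corresponding differences were 0.67 and 0.65 for 9-cis retinoic acid, 0.45 and 0.67 for AM580, and 0.42 and 0.32 for CD3254. On the log2 scale the joint value less the sum of the values for either agonist alone was 0.09 ± 0.18 with the term (the interaction, untested). Its sign was not stable: without the term it was -0.20 when AM580 replicate 1 was left out and 0.29 when DMSO replicate 1 was left out. The 4 comparisons share the DMSO libraries.

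The comparisons among single ligands give no weight to the joint and DMSO libraries, from which Nqo2 was picked. Those libraries still enter the shared estimate of spread and the scaling, so the tests are not fully apart from the choice. None passed the threshold. Nqo2 was 0.31 ± 0.13 higher on the log2 scale after 9-cis retinoic acid than after CD3254 with the set term (edgeR unadjusted p = 0.0264, FDR = 0.881; 95% interval 0.04 to 0.58), and 0.32 ± 0.33 without it (FDR = 1.00). AM580 against CD3254 gave 0.25 ± 0.13 with the term (edgeR FDR = 0.717; interval -0.02 to 0.52). For 9-cis retinoic acid against AM580 the difference was 0.06 ± 0.13 (edgeR FDR = 1.00; interval -0.21 to 0.33), and it turned negative, to -0.23, without AM580 replicate 1 in the fit without the term.

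Nqo2 shares 762 exonic bases with Serpinb6a, a gene for a serine protease inhibitor on the opposite strand, and the strand setting of the counting is not given, so reads of that stretch cannot be assigned with certainty. Serpinb6a stood at 173, 223 and 129 CPM after the joint treatment, against 259, 290 and 202 CPM after DMSO. Its log2 change with the term was -0.55 ± 0.21 (edgeR unadjusted p = 0.0222, FDR = 0.861), opposite in sign to that of Nqo2 and not called. Within 300 kb of Nqo2 lie 10 protein-coding genes, of which 7 were tested, and 0 were called in any comparison in either fit. The others were Ripk1, a kinase of cell death signalling (-0.01 ± 0.12 for the joint treatment against DMSO), Bphl (-0.11 ± 0.16), the tubulin genes Tubb2a (-0.38 ± 0.23) and Tubb2b (-0.56 ± 0.33), Psmg4, a proteasome assembly chaperone (0.14 ± 0.23), and Slc22a23 (0.32 ± 0.19).

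**Figure D2:**
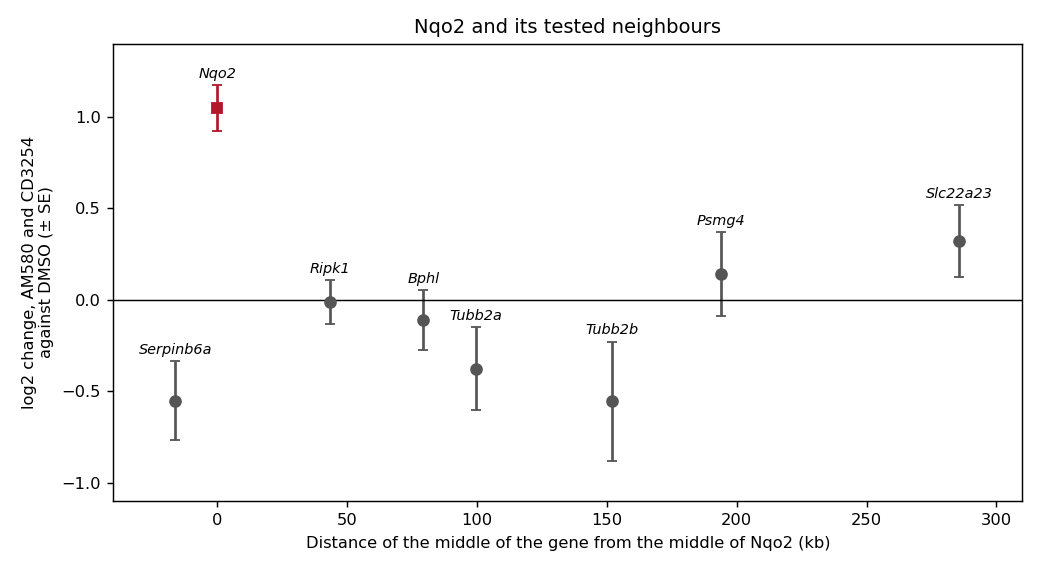
Fitted log2 change after the joint treatment against DMSO (± SE, fit with the library set term) for Nqo2, as a square, and its 7 tested neighbours, as circles, by the distance between gene middles in kb. Nqo2 stands at 1.05 and the neighbours between -0.56 and 0.32.

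None of the 8 other tested genes passed the threshold in any of 11 comparisons, in either fit. For the joint treatment against DMSO that is 0 of 8, where 0.0179% of all tested genes were called without the set term and 0.125% with it, and DESeq2 also called 0. At an unadjusted p under 0.05, edgeR gave 1 of the 8 in each fit, Gclc, where 251 of the 16736 tested genes were under it without the term and 801 (4.79%) with it. For 9-cis retinoic acid, AM580 and CD3254 against DMSO the counts were again 0 of 8, with 0.0299%, 0.0299% and 0.0239% of all genes called with the term and 0 without it. At an unadjusted p under 0.05 those comparisons gave 3 (Gclc, Keap1 and Srxn1), 0 and 0 of the 8 with the term, beside 3.97%, 4.21% and 1.98% of all genes, and 0 without it, beside 1.45%, 1.22% and 0.454%. The log2 changes of the 8 after the joint treatment against DMSO were all above 0, from 0.09 to 0.94 with a median of 0.18 (set term), where the median of all genes was -0.01 and 48.7% were above 0. In the other 7 comparisons, among ligands and over groups of them, 0 of the 8 were called as well. There, the share of all genes called was at most 0.0359% without the term (treatments with a RAR ligand against CD3254 and DMSO), and with the term it ran from 0 through 0.012% (joint treatment against AM580) to 0.0896%. The medians of the 8 after 9-cis retinoic acid, AM580 and CD3254 were 0.16, 0.14 and 0.08, with 5, 6 and 7 of the 8 above 0.

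**Figure D3:**
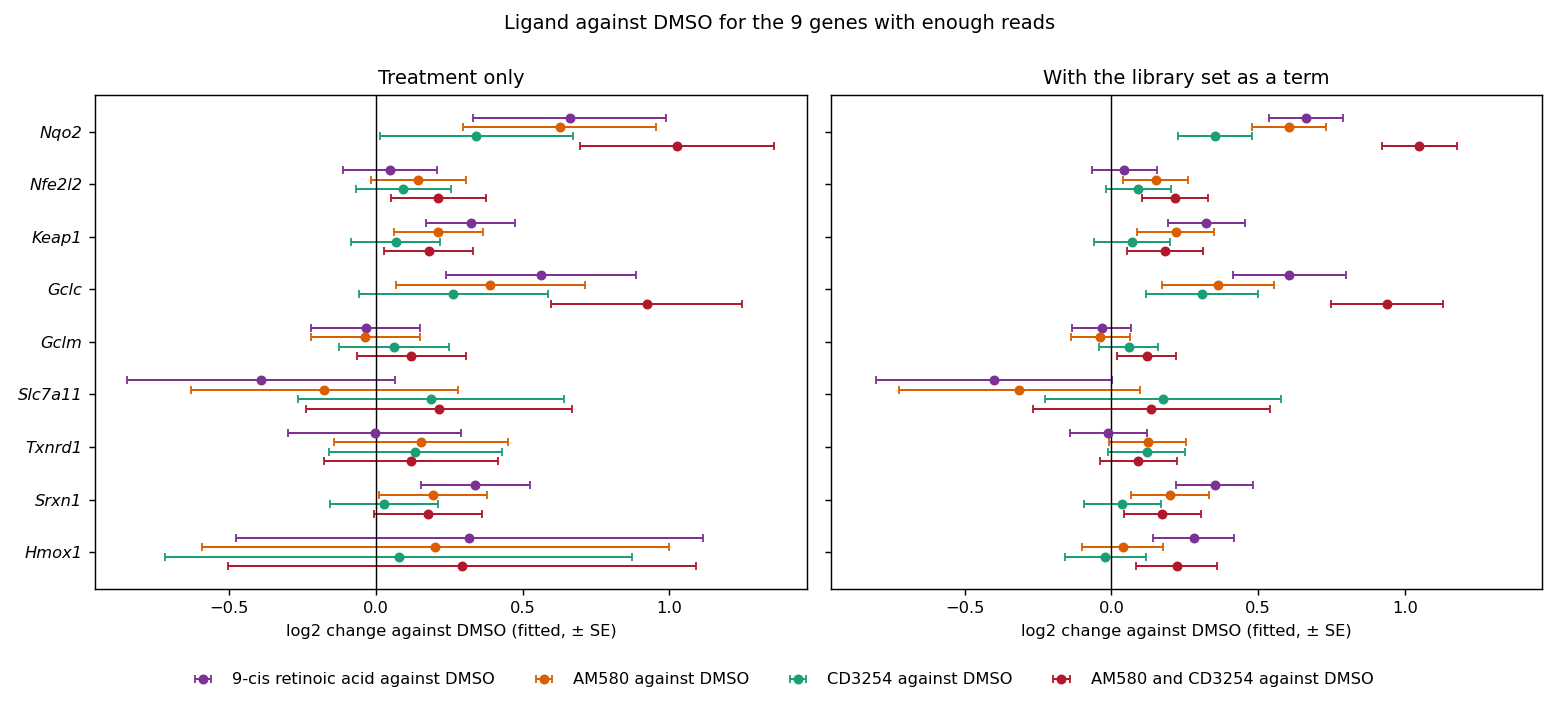
Fitted log2 change of each tested gene after each ligand against DMSO, with bars of ± SE, without the library set term on the left and with it on the right. After the joint treatment Nqo2 (1.05) and Gclc (0.94) lie apart from the other 7 genes (0.09 to 0.22) in the fit with the term.

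Among the 8 other tested genes, Gclc had the change after the joint treatment that lay nearest to that of Nqo2. Gclc (ENSMUSG00000032350, chromosome 9, 77754535 to 77794485, plus strand) encodes the catalytic subunit of glutamate-cysteine ligase, the rate-limiting enzyme of glutathione synthesis. Gclc stood at 106.7, 78.2 and 133.7 CPM after the joint treatment, at 70.8, 77.2 and 100.5 CPM after 9-cis retinoic acid, at 40.5, 88.3 and 91.5 CPM after AM580, at 57.4, 71.3 and 73.2 CPM after CD3254, and at 37.3, 54.3 and 76.5 CPM after DMSO. As for Nqo2, all joint libraries lay above all DMSO libraries, and the library of the 5-library set was the lowest in every treatment. Of the 8 other tested genes, only Gclc had that separation, which 2.39% of all tested genes showed. Nqo2 is not counted here, because it was picked from this contrast. The log2 change of Gclc was 0.94 ± 0.19 with the term (edgeR unadjusted p = 0.000241, FDR = 0.144, 95% interval 0.53 to 1.35) and 0.92 ± 0.32 without it (edgeR unadjusted p = 0.0137, FDR = 1.00). It passed, at an FDR of 0.0259, when AM580 replicate 1 was left out of the fit with the term, with a log2 change of 0.93. Within the sets the difference was 1.07 in the 5-library set and 0.89 in the 10-library set.

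After 9-cis retinoic acid, Gclc differed from DMSO by 0.61 ± 0.19 with the term (edgeR unadjusted p = 0.00686, FDR = 0.980) and by 0.56 ± 0.32 without it (edgeR unadjusted p = 0.105). In the mean of the 3 treatments that hold a RAR ligand, set against the mean of CD3254 and DMSO, the log2 change was 0.48 ± 0.12 (edgeR FDR = 0.420). The joint treatment exceeded AM580 by 0.57 ± 0.19 (FDR = 0.608) and CD3254 by 0.63 ± 0.19 (FDR = 1.00) in the edgeR fit with the term, and the interaction was 0.27 ± 0.27 (FDR = 0.961).

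Across libraries, Gclc had the highest correlation to Nqo2 of the 8 other tested genes. Since the libraries fall into 2 sets, the likeness is given within the 10-library set, where Pearson's r of log2 CPM was 0.79 and Spearman's rho 0.83 for Gclc, and r ran from 0.24 (Hmox1) to 0.69 (Nfe2l2) for the others. With the set means removed from all 15 libraries, r was 0.82 for Gclc, and 0.169% of 13586 genes with a mean of at least 1 CPM had a higher r to Nqo2. By that measure the 5 genes most like Nqo2 were Sfxn1, a mitochondrial serine carrier (0.95), Cyp26b1 (0.94), the flavin monooxygenase Fmo5 (0.93), the ectoenzyme Enpp1 (0.93) and the alcohol dehydrogenase Adh1 (0.91). Without removal of the set means they were Klf4, Mbd1, Oxnad1, Fam20a and Bmp7, with r from 0.90 to 0.94. All these values rest on the same 15 libraries and the same treatments, and are descriptions.

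**Figure D4:**
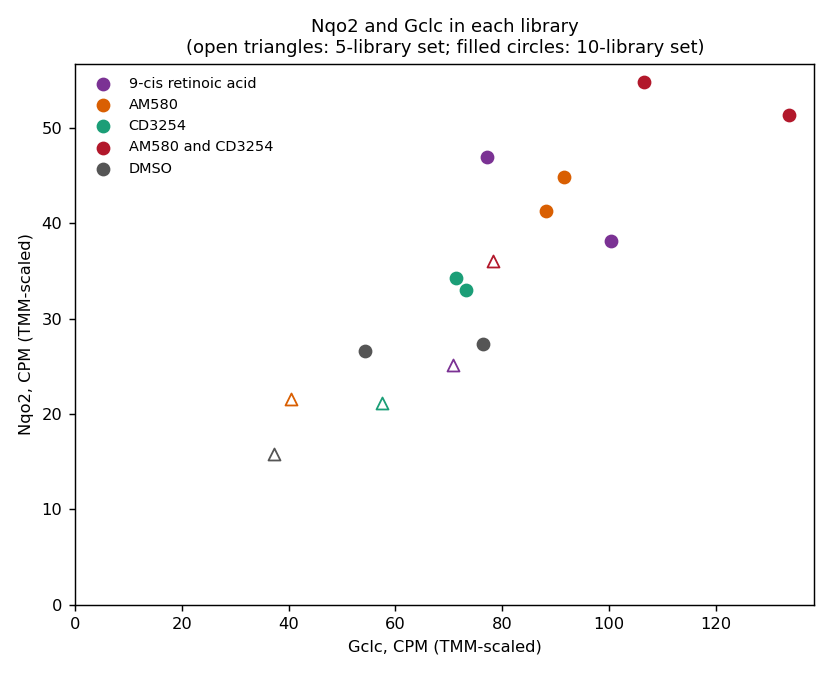
Nqo2 against Gclc in each library, in CPM on linear axes from 0, coloured by treatment, with open triangles for the 5-library set. The 2 joint libraries of the 10-library set are at the top right (106.7 and 133.7 CPM Gclc, 54.8 and 51.3 CPM Nqo2), and DMSO replicate 1 is at the lower left (37.3 and 15.8 CPM).

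Gclm (chromosome 3, 122245557 to 122270732, plus strand) encodes the modifier subunit of the same ligase and did not show the separation of joint from DMSO libraries, although, as for Gclc, the library of the 5-library set was the lowest in every treatment. It stood at 69.5, 56.6 and 74.9 CPM after the joint treatment, against 52.6, 63.8 and 68.5 CPM after DMSO, and the groups overlapped. The log2 change was 0.12 ± 0.10 with the term (edgeR FDR = 1.00; 95% interval -0.10 to 0.34). Its group means ran only from 60.1 to 67.0 CPM. Slc7a11 (chromosome 3, 49892526 to 50443614, minus strand), the cystine carrier of the glutamate exchanger, stood at 68.1, 44.6 and 104 CPM after the joint treatment, at 48.6, 49.5 and 44.4 CPM after 9-cis retinoic acid, at 15.2, 72.9 and 77.4 CPM after AM580, at 72.0, 69.8 and 71.2 CPM after CD3254, and at 67.9, 43.7 and 75.4 CPM after DMSO. The lowest value was AM580 replicate 1, and 9-cis retinoic acid and CD3254 varied little among their libraries. The log2 change after 9-cis retinoic acid against DMSO was -0.40 ± 0.40 with the term (edgeR FDR = 0.980).

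Neither regulator passed the test. Nfe2l2 (chromosome 2, 75675513 to 75704641, minus strand) stood at 47.9, 50.1 and 42.6 CPM after the joint treatment, against 45.0, 37.3 and 39.0 CPM after DMSO, and spanned 37.3 to 50.1 CPM over all 15 libraries. Its log2 change was 0.22 ± 0.11 with the term (edgeR FDR = 1.00; interval -0.02 to 0.45). Keap1 (chromosome 9, 21229730 to 21239361, minus strand) was highest after 9-cis retinoic acid, at 40.8, 52.1 and 48.8 CPM, against 34.1, 42.5 and 36.5 CPM after DMSO, with overlap. The change there was 0.32 ± 0.13 with the term (edgeR unadjusted p = 0.0271, FDR = 0.980) and 0.32 ± 0.15 without it (edgeR unadjusted p = 0.0514). Keap1 shares 510 exonic bases with the antisense gene Gm16754, and Gclm shares 540 with Gm17494 and Gm6061, so their reads carry the same doubt as those of Nqo2. These are transcript levels, and NRF2 activity is known to be set mainly through its protein.

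Among the thioredoxin-linked genes, Txnrd1 (chromosome 10, 82833951 to 82897712, plus strand), for cytosolic thioredoxin reductase, had the highest level per kilobase of exon of the 10, at 38.2 CPM per kb. It stood at 340, 188 and 306 CPM after the joint treatment, against 202, 320 and 244 CPM after DMSO, with a log2 change of 0.09 ± 0.13 (set term, edgeR FDR = 1.00). Srxn1 (chromosome 2, 152105516 to 152111376, plus strand), for sulfiredoxin, which repairs overoxidised peroxiredoxins, stood at 24.4, 23.9 and 26.9 CPM after 9-cis retinoic acid, against 16.5, 21.7 and 21.2 CPM after DMSO. All 3 of those libraries lay above DMSO, as for 2.15% of all genes, and Srxn1 was 1 of the 9 tested genes with that separation. The log2 change was 0.35 ± 0.13 with the term (edgeR unadjusted p = 0.0188, FDR = 0.980) and 0.34 ± 0.18 without it (edgeR unadjusted p = 0.0876).

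Hmox1 (chromosome 8, 75093621 to 75100589, plus strand), for the inducible heme oxygenase, had levels split by library set in every treatment. It stood at 24.5, 93.5 and 28.0 CPM after the joint treatment, at 91.7, 25.2 and 31.3 CPM after 9-cis retinoic acid, at 94.3, 21.7 and 21.0 CPM after AM580, at 82.3, 22.5 and 20.9 CPM after CD3254, and at 71.6, 22.4 and 25.0 CPM after DMSO. In each treatment the library of the 5-library set was the high one. The change for the joint treatment against DMSO was 0.22 ± 0.14 with the term (edgeR FDR = 1.00) and 0.29 ± 0.80 without it, where it turned to -0.60 when joint replicate 2 was left out.

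Between the sets the 9 tested genes did not move together. Averaged over the 5 treatments, the 5-library set minus the 10-library set was 1.84 on the log2 scale for Hmox1 and 0.23 for Nfe2l2, both higher in all 5 treatments. It was -0.75 for Nqo2, -0.65 for Txnrd1, -0.64 for Gclc, -0.35 for Gclm and -0.25 for Srxn1, each lower in all 5 treatments. Txnrd1 stood at 188 to 204 CPM in the 5-library set and at 244 to 340 CPM in the 10-library set. For Gclm these ranges were 49.8 to 56.6 and 62.1 to 74.9 CPM. The sets were read from these same counts, and how many of all tested genes separate likewise was not counted. A gap between the sets can therefore not be called particular to Txnrd1, Gclm or Hmox1. Keap1 (-0.08) was higher in the 5-library set in 1 of the 5 treatments and Slc7a11 (-0.58) in 3. The Slc7a11 mean held -2.30 for AM580, and the highest treatment was at 0.24. The part of the hypoxia-induced and immune genes in these differences was not tested.

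**Figure D5:**
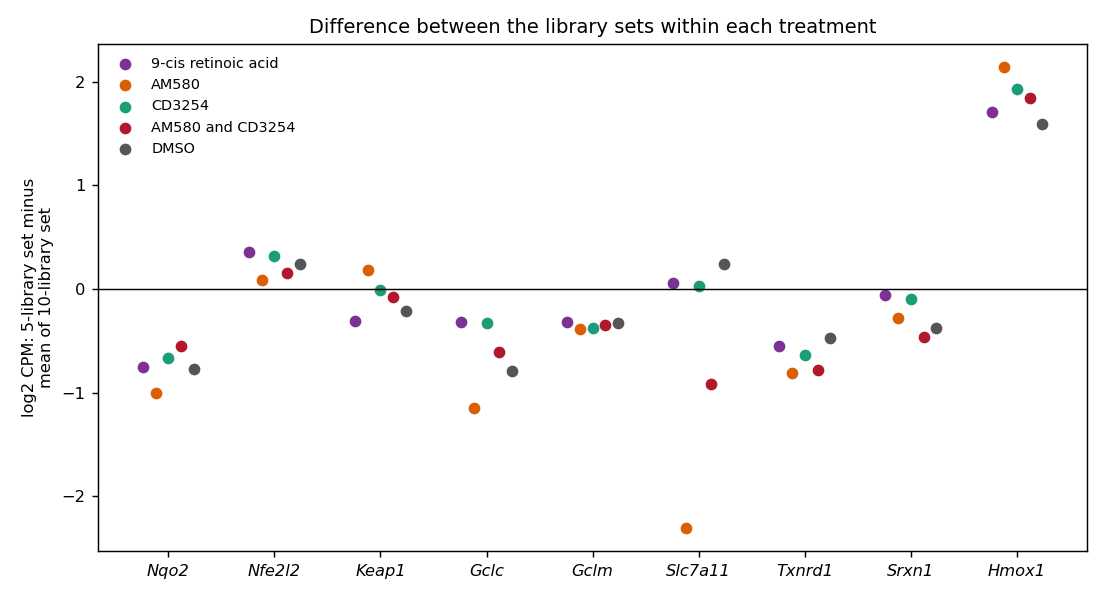
Difference in log2 CPM between the library of the 5-library set and the mean of the 10-library set, within each treatment, for the 9 tested genes. All 5 points of Hmox1 lie between 1.60 and 2.14, and all 5 of Nqo2 between -0.999 and -0.55.

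Antioxidant response element cores, written TGACNNNGC and searched on both strands, stood in 12.4% of the 32851 windows. Promoter windows were held for 8 of the 10 genes (11 windows), and 4 of these genes had a match. They are shown with 10 bases on either side, in the direction of the gene, with the match in capitals, because these genes are the group's NRF2-linked members whose starts carry the letters; Hmox1 and Gclc were not matched in the table.
Nfe2l2: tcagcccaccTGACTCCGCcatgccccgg
Gclm: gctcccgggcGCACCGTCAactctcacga
Txnrd1: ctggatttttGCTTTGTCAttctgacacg
Srxn1: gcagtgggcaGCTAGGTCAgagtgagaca
The matches lie at -239 (Nfe2l2), -134 (Gclm), -92 (Txnrd1, second start) and +28 (Srxn1), on the gene's strand for Nfe2l2 and on the opposite strand for the other 3. In Srxn1 the match overlaps an AGGTCA at +31, and a further AGGTCA lies at -215. None of the 4 passed the test in any comparison. Neither Nqo2 window nor the Nqo1 window holds the core, but sequence beyond 250 bases before and 50 after a start was not searched.

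None of the other listed genes of the same pathways passed the test against DMSO. With the term, 0 of 24 tested genes of glutathione synthesis and use, 0 of 21 thioredoxin, peroxiredoxin and dismutase genes, 0 of 13 NADPH genes, 0 of 12 heme, iron and ferritin genes, 0 of 19 xenobiotic genes, 0 of 23 NRF2 control genes and 0 of 18 ATF4 and cystine genes passed in any ligand comparison with DMSO, beside the shares of all genes given above. The medians after the joint treatment were -0.04 for the glutathione genes and 0.09 for the NRF2 control genes, with 10 of 24 and 15 of 23 above 0. After AM580 the glutathione median was 0.26, with 22 of 24 above 0, the heme and iron list had 11 of 12 above 0 and the ATF4 and cystine list 16 of 18, beside 50.7% of all genes. After 9-cis retinoic acid the glutathione list had 21 of 24 above 0 and the ATF4 and cystine list 17 of 18, beside 52.0% of all genes, and 0 were called in each case. The remaining lists are given without the term. After AM580, 17 of 21 thioredoxin-group, 11 of 13 NADPH, 13 of 23 NRF2 control and 11 of 19 xenobiotic genes were above 0. The share of all genes was 52.7%. After 9-cis retinoic acid these counts were 15, 10, 16 and 8, with 10 of 12 in the heme and iron list, beside 52.2% of all genes. Each of these groups holds an unusual library. AM580 replicate 1 lay furthest out on the first principal component (-88.9). In replicate 3 of 9-cis retinoic acid 63.0% of reads had no gene. The counts above 0 were not made without these libraries. The smallest p among them after the joint treatment belonged to Gsta3, a glutathione transferase, at 3.76 ± 2.73 CPM against 1.39 ± 1.17 CPM after DMSO (SD, n = 3 each; log2 change 1.59 ± 0.50, edgeR FDR = 0.625). The genes of this transferase family are close copies, so its reads may be shared with them.

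Por, for cytochrome P450 oxidoreductase, another flavoprotein, averaged 243 ± 47.6 CPM after the joint treatment, 247 ± 28.1 CPM after 9-cis retinoic acid, 271 ± 70.6 CPM after AM580, 182 ± 2.27 CPM after CD3254 and 166 ± 30.8 CPM after DMSO (SD, n = 3 each). Its log2 changes from DMSO were 0.54 ± 0.20, 0.57 ± 0.20 and 0.70 ± 0.20 for the first 3 (set term, edgeR FDR = 0.771, 0.980 and 0.808). Osgin1, an NRF2-responsive growth inhibitor in human cells, had log2 changes of 0.64 ± 0.25 after 9-cis retinoic acid, 0.59 ± 0.25 after AM580 and 0.56 ± 0.25 after CD3254 (edgeR FDR = 0.980, 0.808 and 1.00). Trib3, a pseudokinase target of ATF4, had a log2 change of 0.60 ± 0.13 after 9-cis retinoic acid (edgeR FDR = 0.564). Tfrc, for the transferrin receptor, stood at 325 ± 4.14 CPM after the joint treatment and 176 ± 38.8 CPM after DMSO (SD, n = 3 each; log2 change 0.88 ± 0.31, edgeR FDR = 0.762), and Aldh1l1, a folate enzyme that yields NADPH, had a log2 change of -0.69 ± 0.23 (edgeR FDR = 0.717). The other genes with the 2 smallest p of their list after the joint treatment included Gsta4 (0.43), Cat, for catalase (0.24), Glrx, for glutaredoxin (-0.44), Idh1 (0.33), Ugt1a6a (-1.15), Bach2 (0.56), Pgam5 (0.24), Trib3 (0.34), Cbs (-0.26), Car9 (0.78) and Vegfa (0.35), as log2 changes from DMSO with the term, none called. After 9-cis retinoic acid they included the glutathione peroxidase gene Gpx3 (0.93), Gsta3 (1.16), Glrx (-0.53), Sesn2 (0.32), Aldh1l1 (-0.34), Mthfd1 (0.14), the iron exporter gene Slc40a1 (0.32), Cbr3 (0.49), Pgam5 (0.20), Car9 (0.64) and Hk2 (0.42), none called. After AM580 they included Gsta4 (0.72), Gpx4 (0.64), the extracellular superoxide dismutase gene Sod3 (-1.34), Prdx6 (0.29), Mthfd1 (0.28), Tkt (0.35), Ireb2 (-0.33), Akr1b3 (0.32), Pgam5 (0.42), Trib3 (0.37), Phgdh (0.40), Car9 (0.68) and Hk2 (0.36), none called. After CD3254 they were Gstm6 (-0.27), Gstm2 (-0.46), Sesn2 (0.29), Sod3 (-1.29), Aldh1l1 (-0.76), Idh1 (0.28), the heme transporter gene Slc48a1 (-0.25), Blvrb (-0.47), Ahrr (0.90), Cyb5r3 (-0.17), Bach2 (0.40), Trib3 (0.39), Ankrd37 (-0.57) and Ndrg1 (-0.28), beside Osgin1, and none was called. Of the hypoxia-induced list, Car9, for a carbonic anhydrase, was called higher in the 3 treatments with a RAR ligand than in CD3254 and DMSO (0.65 ± 0.11 with the term, edgeR FDR = 0.0439, where 0.0896% of all genes were called) but not without the term (0.58 ± 0.62, edgeR FDR = 1.00), and its level also differed between the library sets.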

How the data were processed

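Transcripts were measured by RNA sequencing in 15 libraries of the 266-6 line. The authors deposited unnormalized read counts per Ensembl gene, made with FastQC, HISAT2 2.2.1, SAMtools 1.18 and HTSeq on mm10, per the submitters' processing notes. The sources used here give neither the strand setting nor the annotation release or library kit. Of 43432 identifiers, 42462 matched a symbol. Reads that the counter gave to no gene were left out of library totals (18.1% to 28.5% of reads, and 63.0% in replicate 3 of 9-cis retinoic acid).

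From these counts, edgeR 4.0.16 in R 4.3.3 (limma 3.58.1) kept genes by filterByExpr, scaled libraries by TMM and fitted robust quasi-likelihood models to all 15 libraries, with 10 residual degrees of freedom, or 9 with the library set as a term. Tests were two-sided with Benjamini-Hochberg adjustment within each comparison at 0.05. The interaction is the joint minus CD3254 difference less the AM580 minus DMSO difference. CPM use the TMM-scaled library sizes. Libraries were assigned to sets by which side of 0 they took on component 1 of the log2 CPM (prior count 2). DESeq2 1.42.0 and other settings were alternatives. The 95% Poisson interval and the floor of 3 reads cover counting error only.

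The members, pathway lists, comparisons and the library set were chosen with earlier results of these data known. Named were the members, list genes past the threshold and, for each list, those with the 2 smallest p after each ligand against DMSO with the set term (a listed gene is not reported here), tested neighbours of Nqo2 within 300 kb, and the 5 genes most like it. Replicate numbers were not treated as pairs in the main fits, and the labels do not say whether a number marks a shared batch. Over 30 pairs with the same number, the correlation of deviations from the group means ran from -0.681 to 0.815, and 20 exceeded 0.1. Over pairs with different numbers it ran from -0.703 to 0.764. Replicate 1 of every treatment but the joint one fell in the 5-library set, so number and set overlap. At most 1.78% of counts were equal between any 2 libraries, so none was treated as a repeat.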

Additional observations from a re-analysis of the deposited data

How the results depend on the processing

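Over 39 settings beside the treatment-only fit (38 for any RAR ligand against none), the number of the 8 or 9 tested genes past the threshold stayed at 0 in every comparison, except for the joint treatment against DMSO. There it was 1, Gclc, with the library set as a term when AM580 replicate 1 was left out (log2 change 0.93, edgeR FDR = 0.0259) or when replicate 3 of 9-cis retinoic acid was dropped in addition (0.93, FDR = 0.0114), so the range over leave-one-out fits was 0 to 1. The cause was not tested. The log2 change of Gclc in that comparison ran from 0.69 to 1.20 over all 39.

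The direction of Hmox1 turned in every one of the 11 comparisons when a library of the 5-library set was left out of the treatment-only fit. The furthest were -0.89 for AM580 against DMSO and -0.97 for AM580 against CD3254 without AM580 replicate 1, where other leave-one-out fits reached 0.91 and 1.06. The interaction of Keap1 was 0.049 in the 10-library set alone, against -0.10 over all libraries. Slc7a11 turned too, from -0.18 for AM580 against DMSO over all libraries to 0.34 in the 10-library set alone, as did the interaction of Nqo2 (-0.20 to 0.29). Counts over all genes moved far more. For the joint treatment against DMSO they were 3 in the treatment-only fit, 21 with the set term, 13 in the 10-library set alone, 19 by DESeq2, 109 with the term and those 2 libraries dropped, and 0 to 6 and 11 to 38 over leave-one-out fits without and with the term. In a fit of the 2 compared groups alone it was 0. With the set term, against 0 in the treatment-only fit, they were 5, 5 and 4 for 9-cis retinoic acid, AM580 and CD3254 against DMSO and 0 to 5 among ligands, and for any RAR ligand against none 15, against 6. DESeq2 gave 10, 10 and 0 for the first 3.

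With the replicate number as a block, 0 of the tested genes were called in each comparison, the log2 changes of Nqo2 and Gclc for the joint treatment were 1.12 and 0.97, and 7 genes in all were called. The block together with the set term, chosen after seeing the data, gave 0 again and 19 in all. The block changed no call among the tested genes, and 7 of 15 libraries correlated best with one of their own number.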
